A study of Mus musculus with 6 samples.

Results

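In this series, 8 genes of the muscle ubiquitin system were followed through the differentiation of mouse C2C12 myoblasts: the ubiquitin ligases Trim63, Trim54 and Trim55, the F-box protein gene Fbxo32, the SOCS-box adaptor genes Asb2 and Asb5, and the BTB-kelch adaptor genes Klhl31 and Klhl40. They were chosen by symbol, and every probe set that the platform annotation pairs with 1 of these genes alone was read. Of the 8 genes, 6 had such a probe set, 8 probe sets in all, out of 18194 genes and 45101 probe sets on the array. Trim55 and Klhl31 had none and have no value below. The 6 measured genes all passed the filter on low values that left 13242 genes, called kept genes here, each with a highest value over the arrays of at least 7.95, the median of all values.

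C2C12 is a mouse skeletal myoblast line that fuses into multinucleated myotubes when serum is lowered. Parental cells were taken in growth medium (10% fetal bovine serum), and at day 0 (just after the change to differentiation medium with 2% horse serum), day 2 and day 4. Stable transfectants were taken at day 0 only, carrying either shRp58, a short hairpin against the transcriptional repressor Rp58 (current symbol Zbtb18), or a control construct that the labels call both a LacZ vector and a control hairpin. G418 selection of both lines ran for 2 weeks at 500 µg/ml, and the labels do not say whether they were pools or clones, so effects of the hairpin and differences between lines cannot be told apart. Each of the 6 groups was 1 array, so there is no replicate error, no difference could be tested, and every comparison is of 2 arrays. Values are RMA expression values on the log2 scale, on which a difference of 1 is 2-fold. The array medians were 8.26 to 8.27 in the time course but 7.15 for both stable lines, so these sets were read apart. In bulk RNA, more cells expressing a gene and more RNA per cell cannot be told apart.

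Ubiquitin ligases attach ubiquitin to proteins and so mark many of them for breakdown by the proteasome. The MuRF proteins, encoded by Trim63 (MuRF1), Trim55 (MuRF2) and Trim54 (MuRF3), are RING-type ligases of the sarcomere. Fbxo32 (atrogin-1) brings substrates to a Cul1 complex through Skp1, Asb proteins to Cul5 complexes through elongins B and C, and BTB-kelch proteins to Cul3. Trim63 and Fbxo32 are widely used as marker genes of muscle wasting, whereas Klhl40 is known for binding and stabilising the thin filament proteins nebulin and Lmod3.

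Of 10 skeletal muscle markers, 7 lay at or above the array median in growth medium, 9 at day 0, and 10 at day 2, at day 4 and in both stable lines. Of 7 measured leukocyte and endothelial markers, 5 lay below the array median on each of the 6 arrays. Markers of other cell types were not all low. In growth medium the smooth muscle markers averaged 2.04 above the array median (4 of 6 at or above it), against 1.98 for the skeletal muscle markers, and at day 4 they averaged 1.69, against 5.01. Of 6 neuron markers 5, of 5 measured adipocyte markers 3 and of 7 cardiac markers 3 lay at or above the array median in growth medium, and of 4 measured osteoblast markers 1. Zbtb18, the hairpin target, read 11.16 in shRp58 cells and 11.69 in control-vector cells, a difference of -0.53 (1.44-fold lower). That difference ranked 359 from the bottom and lay just inside the central 95% of kept genes, -0.55 to 0.46. Over the time course Zbtb18 read 11.18, 11.88, 12.86 and 13.06 in growth medium and at days 0, 2 and 4.

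**Figure D1:**
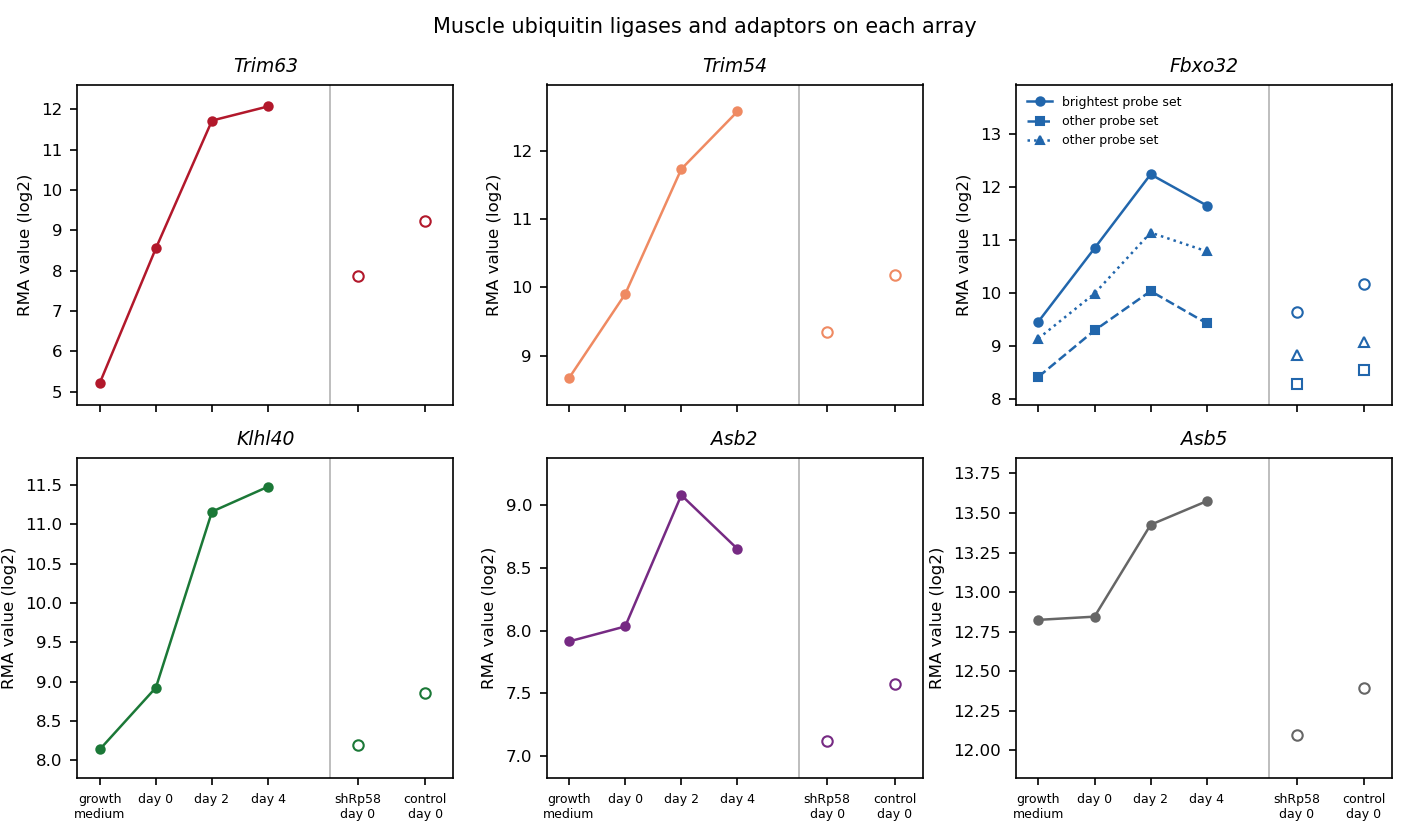
RMA values (log2) of the 6 measured genes on each array, 1 point per probe set and array, with a separate vertical scale for each gene. Filled points joined by lines are the time course and open points the stable lines, and the 3 Fbxo32 probe sets all peak at day 2.

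The MuRF genes differed most over the time course. Trim63 (probe set 1438704_at) read 5.22 in growth medium and 8.55, 11.72 and 12.07 at days 0, 2 and 4. Day 0 exceeded growth medium by 3.34 (10.1-fold), day 2 exceeded day 0 by 3.16 (8.97-fold), and day 4 exceeded day 2 by 0.35. Its day 0 difference ranked 7 from the top among the 13242 kept genes and its day 2 difference 15. The growth-medium value lay below the lower quartile of that array, so the size of the first step is not exact: with every value under 7.95 set to 7.95 it was 0.61 and no longer 2-fold.

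Trim54 (1419440_at), whose product associates with microtubules and the sarcomere, read 8.67, 9.90, 11.73 and 12.58 in growth medium and at days 0, 2 and 4. It was higher at each later time. The steps were 1.23, 1.83 and 0.84, and day 4 was 6.38-fold above day 0. The last step was the largest among the 6 genes and ranked 156 among kept genes.

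Klhl40 (1431043_at) read 8.14, 8.92, 11.16 and 11.48 in growth medium and at days 0, 2 and 4. Its steps were 0.79, 2.24 and 0.32. Most of its difference thus lay between day 0 and day 2: that interval held 67.0% of the log2 difference between day 4 and growth medium, against 46.9% for Trim54. The step up to day 0 held 23.5% of it for Klhl40 and 31.5% for Trim54. In growth medium Klhl40 lay 0.14 below the array median, so its shares start from a dim value. No such share is given for Trim63, since it would rest on the inexact growth-medium value.

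Fbxo32 was read by 3 probe sets, and all 3 were highest at day 2. The brightest (1435265_at) read 9.46, 10.85, 12.25 and 11.66 in growth medium and at days 0, 2 and 4. A second (1448747_at) read 9.14, 9.99, 11.14 and 10.79, and the third (1417522_at) 8.42, 9.29, 10.04 and 9.43, in the same order. All 3 read higher at each time up to day 2 and lower at day 4 than at day 2, by amounts that did not reach 2-fold (-0.59, -0.35 and -0.61). They disagreed on size. The day 0 minus growth medium difference was 1.39, 0.85 and 0.88, so the brightest alone reached 2-fold there, and the mean over the 3 was 1.04. The day 2 minus day 0 difference was 1.40, 1.15 and 0.74, so the third probe set did not reach 2-fold. At day 4 the third stood 0.13 above day 0, while the others stood 0.81 and 0.80 above it.

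Asb2 (1428444_at), whose product targets filamins, had the same order of days at lower signal. It read 7.91, 8.03, 9.08 and 8.65 in growth medium and at days 0, 2 and 4. The day 2 value was 1.05 above day 0, just past 2-fold, and the day 4 value was 0.43 below day 2. Its values in growth medium and at day 0 lay 0.36 and 0.23 below the array medians, so these steps start from a dim probe set.

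Asb5 (1449356_at), a related adaptor found in muscle whose substrates are less well known, was already bright in growth medium and had the smallest range over the 4 time-course arrays. It read 12.83, 12.85, 13.43 and 13.58 in growth medium and at days 0, 2 and 4. No step reached 2-fold, and the whole range was 0.75. The day 0 minus growth medium difference of 0.02 lay below the median of all kept genes, 0.10, and turned negative under 3 of 6 alternative settings, the lowest being -0.15.

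Read together, 3 of the 6 genes (Trim63, Fbxo32 and Trim54) exceeded growth medium by at least 2-fold at day 0, where 2.91% of kept genes were higher and 0.317% lower by that much. Trim63 fell short of 2-fold there with the floor at 7.95, and Fbxo32 passed through its brightest probe set. Those shares became 2.08% and 0.536% after quantile normalization within each set of arrays, and 2.18% and 0.665% after quantile normalization of all 6 arrays, with the median of all kept genes at -0.03 in both. Relative to the median of all kept genes as deposited, the 6 differences ran from -0.08 (Asb5) to 3.24 (Trim63). For day 2 against day 0, 5 of 6 were at least 2-fold higher, all but Asb5, and 0 lower, where 2.67% of kept genes were higher and 2.96% lower. For day 4 against day 0, 3 of 6 were higher (Trim63, Trim54 and Klhl40) and 0 lower, where 3.83% of kept genes were higher and 5.66% lower. For day 4 against day 2, 0 of 6 were 2-fold apart either way, where 0.808% of kept genes were higher and 0.808% lower. These comparisons share arrays, so their counts are not independent of each other.

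**Figure D2:**
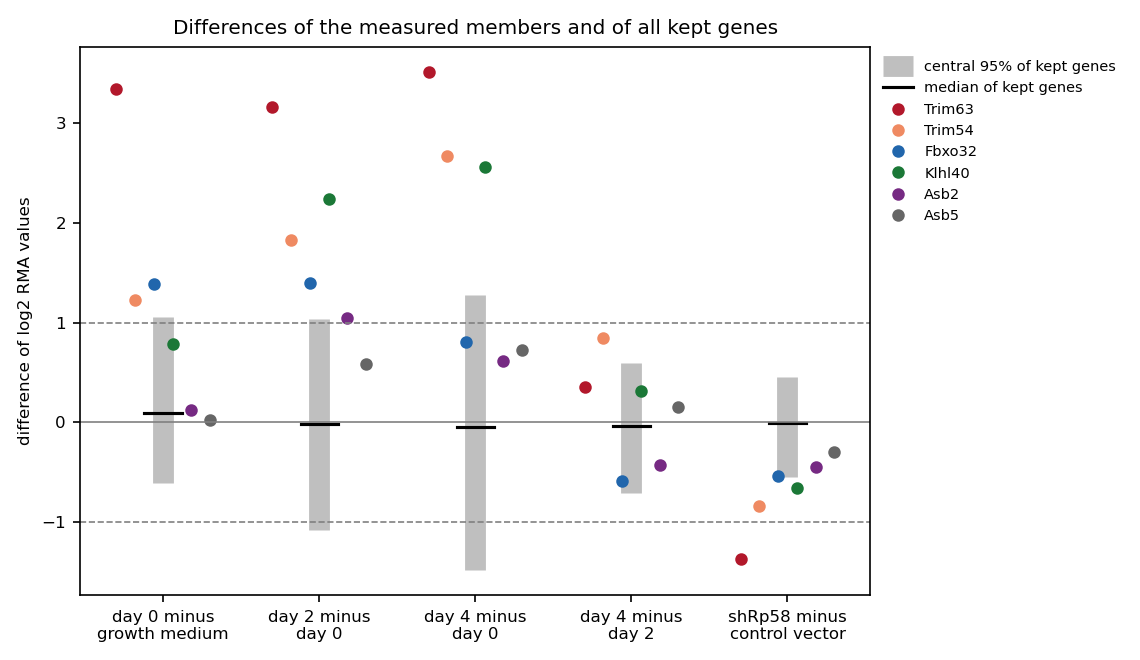
Differences of log2 RMA values for the 6 measured genes (points, brightest probe set) in 5 comparisons. The grey bars span the central 95% of 13242 kept genes, black ticks mark their median and dashed lines 2-fold. Fbxo32 and Asb2 lie below 0 for day 4 minus day 2, and all 6 genes lie below 0 for shRp58 minus control vector.

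The stretches just before the transcription starts are shown for Trim63, Trim54, Klhl40 and Asb2, because the first 3 had the largest differences between day 4 and growth medium and Asb2 read lower at day 4 than at day 2. The sequences are from RefSeq on the GRCm38.p6 build, 250 bases before the start at chr4:134314870-134315119 (plus strand) for Trim63, chr5:31116362-31116611 (plus strand) for Trim54 and chr12:103356002-103356251 (minus strand) for the first of 2 starts of Asb2. For Klhl40, where another transcript starts inside the 250 bases, only the last 30 bases are shown, chr9:121777577-121777606 (plus strand). Capitals mark E boxes (CANNTG, the core bound by helix-loop-helix factors such as MyoD and myogenin) and, in Trim63, also a match to GTAAACA on the other strand (the FoxO core).
Trim63: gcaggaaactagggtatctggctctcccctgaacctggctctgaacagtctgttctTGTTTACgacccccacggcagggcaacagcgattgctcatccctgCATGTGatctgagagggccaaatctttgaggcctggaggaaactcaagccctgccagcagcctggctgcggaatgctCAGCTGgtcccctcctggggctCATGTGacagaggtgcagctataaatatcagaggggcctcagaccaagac
Trim54: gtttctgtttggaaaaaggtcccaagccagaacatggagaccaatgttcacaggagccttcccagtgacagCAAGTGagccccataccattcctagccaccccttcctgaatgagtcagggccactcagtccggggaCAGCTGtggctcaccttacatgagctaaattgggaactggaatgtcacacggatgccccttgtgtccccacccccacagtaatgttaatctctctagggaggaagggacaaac
Klhl40: tcagagagaaagcctctgccCAGCTGtcct
Asb2: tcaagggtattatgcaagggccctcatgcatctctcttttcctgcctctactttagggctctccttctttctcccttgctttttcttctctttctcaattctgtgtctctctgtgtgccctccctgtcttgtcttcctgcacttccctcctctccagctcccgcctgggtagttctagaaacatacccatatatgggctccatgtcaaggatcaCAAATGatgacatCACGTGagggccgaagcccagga

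Matches on either strand were counted in all 9 windows of 250 bases that the table holds for 6 of the 8 genes, with Fbxo32 and Trim55 absent from it. An E box of the CAGCTG form, which is one kind of CANNTG, was found in 3 windows, those of Trim63, Trim54 and Klhl40, beginning 72, 113 and 10 bases before the start. Of 32851 windows of all genes, 13.0% hold that form. Any CANNTG was found in 6 of the 9 windows and in 66.2% of all windows. GTAAACA was found in 1 window, that of Trim63, beginning 194 bases before the start, and in 3.17% of all windows. The 10-letter MEF2 consensus was found in 1 window, at the second start of Asb5, and in 2.92% of all windows. The Rp58 core ACATCTG, which itself contains an E box, was found in 0 of the 9 windows and in 3.71% of all windows. These matches describe the letters in these windows only.

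The kept genes with time courses closest to each member were named by the root mean square distance over the 4 arrays, after each gene's own mean was subtracted. Those of Trim63 were Myl4, the embryonic and atrial myosin light chain (distance 0.11), and Klhl41, a BTB-kelch gene of the Klhl40 family (0.16). Those of Trim54 were Cavin4, a muscle caveolar protein gene (0.10), and Plpp7 (0.10), and those of Klhl40 were Nrap, a gene of myofibril assembly (0.07), and Lrrc39, which encodes an M-band protein (0.09). Fbxo32 lay closest to Igfbp4, a binding protein of insulin-like growth factors (0.10), and Inhbb, an activin subunit gene (0.12). Asb2 lay closest to Ppargc1a, a coactivator of mitochondrial genes (0.02), and Nkain1 (0.05), and Asb5 to Gpr107 (0.02) and Srgap1 (0.02). Distances are smaller where a course is flatter, so they are not compared between members. Among the members themselves, Trim54 and Klhl40 were 0.25 apart, Asb2 and Asb5 0.24, and Trim63 and Asb5 2.47. The distances of Trim63 include its inexact growth-medium value. Among the neighbours, Klhl41 read under 7.95 in growth medium, and Plpp7, Lrrc39, Ppargc1a and Srgap1 did so in growth medium and at day 0.

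**Figure D3:**
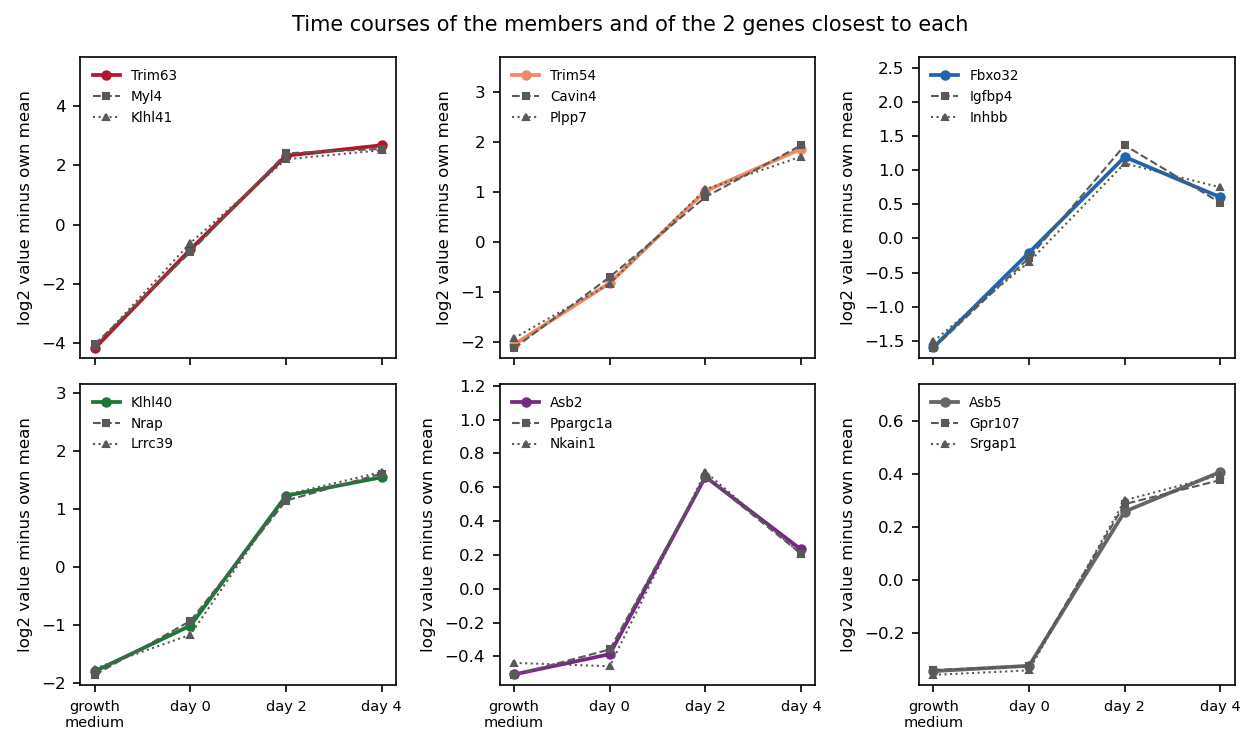
Log2 RMA values minus each gene's own mean over the 4 time-course arrays, for the 6 measured genes (coloured) and the 2 kept genes closest to each (grey). Fbxo32, Asb2 and their 4 neighbours stand lower at day 4 than at day 2, and the other 4 members and their neighbours stand higher.

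In the stable lines all 6 genes read lower with shRp58 than with the control vector at day 0, where 51.3% of kept genes read lower. So did all 8 probe sets, 3 of which are of Fbxo32. Trim63 read 7.87 in shRp58 cells and 9.24 in control-vector cells, a difference of -1.37 (2.58-fold lower) that ranked 31 from the bottom of the kept genes. It was the only member at least 2-fold lower, 1 of 6, where 0.619% of kept genes were lower and 0.0529% higher by that much. The shRp58 value of Trim63 lay 0.72 above the median of its own array but under the floor of 7.95, which was set over all 6 arrays, and with values under it set to it the difference was -1.29.

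The other members differed by less than 2-fold. Trim54 read 9.35 in shRp58 cells and 10.18 in control-vector cells (-0.83). Klhl40 read 8.19 in shRp58 cells and 8.85 in control-vector cells (-0.66). These differences and that of Trim63 lay outside the central 95% of kept genes, which ran from -0.55 to 0.46 around a median of -0.01.

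The brightest Fbxo32 probe set read 9.64 in shRp58 cells and 10.17 in control-vector cells (-0.54), and the other 2 differed by -0.25 and -0.27. Their mean difference was -0.35. Asb2 read 7.12 in shRp58 cells and 7.57 in control-vector cells (-0.45). These Asb2 values lay 0.03 below and 0.42 above the medians of their own arrays. Both are under 7.95, so with that floor the difference was 0.00. Asb5 read 12.10 in shRp58 cells and 12.40 in control-vector cells (-0.30). These 3 genes lay inside the central 95% of kept genes. The median over the 6 genes was -0.60, against -0.01 over all kept genes.

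Cell type markers also differed in this comparison. All 10 skeletal muscle markers read lower in shRp58 cells (median -0.76) and 4 of them were at least 2-fold lower, Tnnt3 (-1.34), Myh3 (-1.30), Ckm (-1.27) and Mymk (-1.04). The mean level of these markers stood 4.16 above the array median in shRp58 cells and 4.87 in control-vector cells. Of 5 kept smooth muscle markers 4 read lower in shRp58 cells (median -0.31, with Tagln at -0.84), and of 5 kept neuron markers 5 read higher (median 0.27, with Stmn2 at 0.88 and Tubb3 at 0.75). The medians of the kept adipocyte and cardiac markers were -0.21 (4 genes) and 0.04 (6 genes). The part of these markers in the differences of the ligase genes was not tested. The genes closest to the members over the time course also read lower in shRp58 cells, where 51.3% of kept genes did. They ran from -1.81 for Myl4 to -0.04 for Ppargc1a, which read 6.42 in shRp58 cells and 6.45 in control-vector cells. Ppargc1a, Lrrc39, Plpp7 and Srgap1 passed the filter only through days 2 and 4 and read under 7.95 in both stable lines.

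The shared machinery of these ligases, like most kept genes, mostly stayed within 2-fold. Of 25 kept genes of the cullin-RING scaffold and its control, 0 were at least 2-fold higher in any comparison. Only 1, the cullin exchange factor Cand1, was lower (-1.12 for day 4 minus day 0, where 5.66% of all kept genes were lower). Within this list, the direct partners of the members stayed within 2-fold. For day 4 minus day 0, Cul1 differed by 0.50 and its adaptor Skp1 by 0.21, Cul3 by 0.07, Cul5 by 0.37 and its RING partner Rnf7 by 0.46. The elongin genes Elob and Eloc differed by 0.08 and -0.19 and the RING gene Rbx1 by -0.10. None of the 33 proteasome subunit genes was 2-fold apart in any of the 5 comparisons, and their medians ran from -0.14 for day 2 minus day 0 to 0.15 for day 4 minus day 2. The same count was 0 for 14 kept genes of ubiquitin and its E1 and E2 enzymes.

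Most relatives of the members, like most kept genes, stayed within 2-fold too. Of 24 other kept Kelch-like genes, 2 were at least 2-fold higher at day 4 than at day 0, Klhl41 (3.13) and Klhl13 (2.17), and Klhl41 was the 1 lower with shRp58 (-1.13). Of 11 other kept Asb genes, 2 were higher at day 4 than at day 0, Asb14 (3.46) and Asb15 (2.03). Both passed the filter only through their day 4 values, 8.41 and 8.20, and read under 7.95 on every other array. The filter thus kept them, out of 16 other Asb genes measured, through the array where they were high. Of 28 other kept Trim genes, 2 were lower at day 4 than at day 0, Trim59 (-1.83) and Trim37 (-1.52), and 0 were higher. Among 23 other ligases studied in muscle, Rnf213 alone was past 2-fold (-1.08 for day 4 minus day 0). By at least 2-fold, 3.83% of all kept genes were higher and 5.66% lower at day 4 than at day 0, and 0.619% were lower with shRp58. The counts of lower Trim genes and of lower other ligases are close to the 5.66%.

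Regulators of the atrophy genes were mixed. The forkhead genes Foxo1 and Foxo3, whose products switch on Fbxo32 and Trim63 in wasting muscle, differed by 0.46 and 0.46 for day 2 minus day 0 and by 0.55 and 0.31 for day 4 minus day 0. Of 21 kept genes in this list, 4 were at least 2-fold higher at day 4 than at day 0: Igf1 (2.75), which restrains the atrophy genes, the glucocorticoid-induced Tsc22d3 (1.88), Cebpd (1.19) and the myogenic factor Myog (1.14). The stress gene Ddit4 was the 1 lower (-1.80). Of all kept genes, 3.83% were higher and 5.66% lower by at least 2-fold there. In shRp58 cells 17 of the 21 read below control-vector cells (median -0.17), 0 of them by 2-fold, with Myog at -0.72, Foxo1 at -0.32 and Foxo3 at -0.19. In that comparison 51.3% of all kept genes read lower (median -0.01), 0.619% by at least 2-fold. Of 14 autophagy genes, Map1lc3a (1.43) and Bnip3 (1.14) exceeded growth medium by at least 2-fold at day 0, where 2.91% of all kept genes did. In the other 4 comparisons 0 of the 14 were 2-fold apart, where at most 3.83% of all kept genes were higher and 5.66% lower.

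Proteins reported as partners or substrates of the members were measured through their own transcripts. Of 22 kept genes on this list, most of them sarcomeric, 13 were at least 2-fold higher at day 4 than at day 0 and 1 was lower (median 1.35). With shRp58, 9 were lower and 0 higher (median -0.65). Of all kept genes, 3.83% were higher and 5.66% lower at day 4, and 0.619% lower and 0.0529% higher with shRp58. Among the 13, Mybpc2 and Myh4 passed the filter only through days 2 and 4, where they were high. Myl2 passed only through those days and the control vector (8.01). The filter thus kept these genes through arrays where they were high. Myh4 also counts among the 9, at 5.26 in shRp58 cells and 7.03 in control-vector cells. The Klhl40 partners nebulin (Neb) and Lmod3 stood 2.39 and 2.09 higher at day 2 than at day 0 and 2.78 and 3.67 higher at day 4. In shRp58 cells Neb and Lmod3 differed from control-vector cells by -1.55 each. The filamin gene Flna, whose product is a reported Asb2 substrate, was the 1 lower. It read 12.56 at day 2 and 12.41 at day 4, against 13.56 at day 0, and differed by 0.09 between shRp58 and control-vector cells. The MyoD gene Myod1 and Eif3f, whose products are reported Fbxo32 substrates, differed by 0.23 and -0.04 for day 4 minus day 0.

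**Figure D4:**
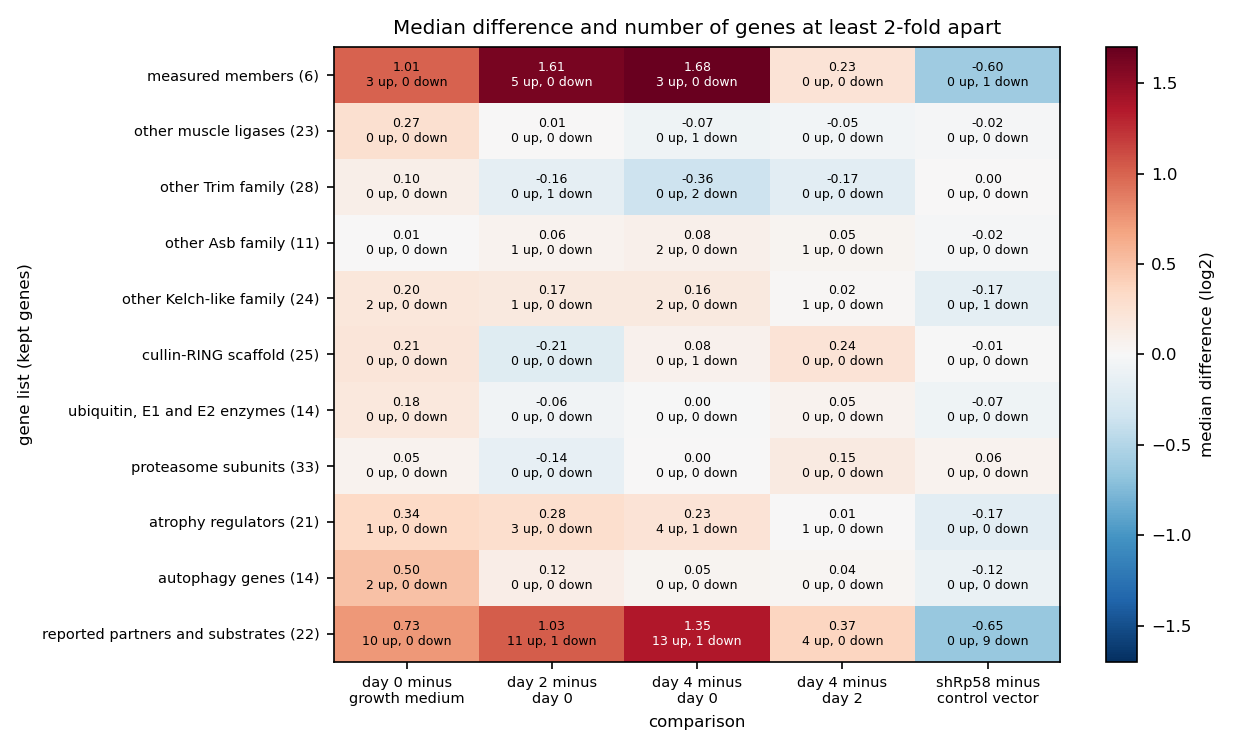
Median log2 difference (colour and upper number) and number of genes at least 2-fold higher (up) or lower (down) for the measured members and 10 gene lists in 5 comparisons. Row labels give the number of kept genes. The members and their reported partners and substrates have medians above 1 for day 2 and day 4 minus day 0, and the proteasome list has 0 genes past 2-fold throughout.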

How the data were processed

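RNA of 6 cultures was hybridised as biotin-labelled cRNA, 10 ug per array, to Affymetrix mouse whole-genome arrays, per the labels. The authors deposited log2 expression values made with the RMA algorithm, according to the design text; what software was used, and if all arrays were normalized jointly, is not given in the sources used here. Array number limits the precision. Groups came from sample titles. Of 45101 probe sets, 34958 were paired with 1 gene by the platform annotation, 932 with several and 9211 were unnamed; 34754 matched RefSeq (GRCm38.p6) by Entrez ID, and 0 symbols changed. A gene was represented by its probe set of highest mean. Differences between arrays were counted at 2-fold, with Python 3.11.15, pandas 2.3.3 and statsmodels 0.14.6, after the code was tested on simulated data. The members, the 10 gene lists, the motifs and the naming rule (members, Zbtb18, the 2 closest genes to each member, list members past 2-fold and direct partners) were chosen with earlier results of these data known. Alternatives were centring, 2 quantile normalizations, lowess with span 0.3, the mean of a gene's probe sets, and a floor at 7.95. No detection calls were used.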

Additional observations from a re-analysis of the deposited data

How the results depend on the processing

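The counts of members at least 2-fold higher or lower in the 5 comparisons stayed within 1.5 times their value under each of 6 alternatives, 60 counts in all. Of 180 member differences recomputed this way, 177 moved by less than the robust standard deviation of all kept genes in their comparison, 3 by more, and 0 past 2-fold changed sign. The 3 were Trim63 at day 0 minus growth medium (0.61) and Asb2 for shRp58 minus control vector (0.00), both with values under 7.95 set to 7.95, where the floor itself takes up the difference, and Fbxo32 for shRp58 minus control vector (-0.35) with the mean of its 3 probe sets. Part of the 177 was fixed beforehand, because the mean of probe sets can change only Fbxo32 and the floor only Trim63 and Asb2. Day 4 minus day 2 ran from -0.63 to -0.52 for Fbxo32 and from -0.43 to -0.40 for Asb2 over the alternatives. All 200 list counts stayed within 1.5 times their value without the filter or after centring. No paired analysis was possible because each group held 1 array. Values under the floor were those of Trim63 in growth medium and in shRp58 cells and of Asb2 in growth medium and on both stable-line arrays. The floor is over all 6 arrays: Trim63 in shRp58 cells and Asb2 in control-vector cells lay 0.72 and 0.42 above the medians of their own arrays. With 1 array a group no value has an error.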
